A study of Saccharomyces cerevisiae with 232 samples.

Results

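The strain trm112D of budding yeast, Saccharomyces cerevisiae, lacks TRM112, whose product is a small protein that binds and activates several methyltransferases. Its members here are the 3 libraries that the labels give to this strain, of 232 samples in the series: 2 libraries of ribosome footprints and 1 RNA library. The background is BY4741, a haploid laboratory strain of mating type a, and the gene was replaced by the kanMX cassette (trm112D::kanMX). The comparison strain was unmodified BY4741, with footprint libraries WT 7 to 10 and RNA libraries WT 5 to 8, which the authors' own ratios tie to trm112D. Also used were trm9D, trm11D and the Elongator deletions elp2D, elp4D and elp6D, each with 2 footprint libraries. All of these cultures grew in YPD at 30 °C to mid-log phase and received cycloheximide, which arrests elongating ribosomes, at 100 µg/mL for 30 s. Footprints of 27 to 34 nt were cut from single ribosomes (monosomes) after digestion with RNase I, and RNA was total RNA depleted of rRNA. No label says whether libraries of 1 strain came from separate cultures or clones, so p-values measure only the spread between libraries, which may be technical. In bulk cultures, fewer cells that express a gene and less RNA of it per cell cannot be told apart.

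Trm112 has 4 known partners in yeast. Trm9 adds the last methyl group of the modified uridine at the first anticodon base (the wobble base) of several tRNAs, after the Elongator complex has built the earlier part of the side chain. Trm11 methylates the guanosine at tRNA position 10, Mtq2 methylates the release factor that ends translation, and Bud23 methylates the small-subunit rRNA and takes part in making 40S subunits. All 4 use S-adenosylmethionine as the methyl donor. The deletion therefore takes away more than 1 tRNA modification and also touches ribosome assembly and termination, while trm9D and trm11D each lack 1 of the partners.

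The tRNA genes below are shown because their codons carry the results at the ribosomal sites. They are read from the RefSeq genome of build R64, which is sacCer3, 5′ to 3′ without the intron, and capitals mark the base at position 10 and the anticodon. Of the 275 nuclear tRNA genes of the annotation, 274 have G at position 10, so that base alone does not set these tRNAs apart.
tRNA-Lys, anticodon UUU, chrIV:359577-359672, plus strand, 1 of 7 genes: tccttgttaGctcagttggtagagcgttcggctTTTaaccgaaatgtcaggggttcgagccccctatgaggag
tRNA-Lys, anticodon CUU, chrIII:151284-151356, minus strand, 1 of 14 genes: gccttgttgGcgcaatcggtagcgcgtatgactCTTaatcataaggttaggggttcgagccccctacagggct
tRNA-Arg, anticodon UCU, chrII:405878-405949, plus strand, 1 of 11 genes: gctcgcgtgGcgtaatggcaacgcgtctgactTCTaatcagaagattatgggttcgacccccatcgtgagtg
tRNA-Gln, anticodon UUG, chrII:350827-350898, plus strand, 1 of 9 genes: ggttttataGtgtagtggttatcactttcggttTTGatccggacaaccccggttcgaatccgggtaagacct
tRNA-Glu, anticodon UUC, chrII:645167-645238, plus strand, 1 of 14 genes: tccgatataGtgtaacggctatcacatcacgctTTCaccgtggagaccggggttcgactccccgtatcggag
tRNA-His, anticodon GUG, chrV:207357-207428, plus strand, 1 of 7 genes: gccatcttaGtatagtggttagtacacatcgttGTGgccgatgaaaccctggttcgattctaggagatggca

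The deposited levels are RPKM, reads per kilobase of a gene and M mapped reads (M, 1e6). Depths recovered from the low values were 1.771 and 0.8084 M reads in the trm112D footprint libraries, against 1.967 to 3.691 M in WT 7 to 10, so that trm112D 2 was the shallowest library here. The trm112D RNA library held 10.93 M reads, against 9.52 to 11.47 M in WT 5 to 8. Across genes, log2 footprint levels of the trm112D libraries had a Pearson r of 0.982, against 0.991 to 0.995 between the WT 7 to 10 libraries, and genes are not independent replicates.

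The targeted gene was checked first. TRM112 lies on chrXIV:707788-708195 on the plus strand with a coding length of 408 bases. Its footprints were 1.38 and 9.08 RPKM in trm112D, about 1 and 3 reads, against 255, 260, 277 and 273 RPKM in WT 7 to 10. Its RNA was 1.34 RPKM in trm112D, about 6 reads, against a mean of 92.9 RPKM in WT 5 to 8. Both trm112D libraries lay far below every wild-type library, as the label says. The nearest genes on both sides lie on the same strand. PET494, which ends 179 bases before TRM112, had 8.03 and 7.55 RPKM in trm112D and 4.32 to 7.81 RPKM in WT 7 to 10, below the level needed for the test. FPK1, which starts 327 bases further on, had 19.3 and 22.1 RPKM in trm112D and 18.4 to 20.7 RPKM in WT 7 to 10. Its log2 change was 0.06 (limma adjusted p = 0.61), below the median of 0.39 over all genes.

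The genes of the 4 partners had more footprints in trm112D. TRM9 had 141 and 123 RPKM in trm112D, against 75.6, 73.3, 66.6 and 73.7 RPKM in WT 7 to 10, and TRM11 had 80.7 and 57.8 RPKM, against 47.3 to 49.0 RPKM. MTQ2 had 72.6 and 48.2 RPKM in trm112D, against 36.5 to 41.8 RPKM in WT 7 to 10, and BUD23 had 136 and 131 RPKM, against 93.4 to 111 RPKM. The trm112D libraries were above the wild-type range for all 4 genes, by the least margin for MTQ2 and TRM11 in library 2. Log2 changes, as differences of mean log2(RPKM + 1), were 0.86 ± 0.13 for TRM9, 0.50 ± 0.13 for TRM11, 0.58 ± 0.15 for MTQ2 and 0.35 ± 0.15 for BUD23 (± SE), with limma adjusted p-values of 2.6e-08, 0.00046, 0.00045 and 0.028. Only TRM9 was still called once every library was centred on its own median, at 0.47 (adjusted p = 0.0019), while BUD23 turned to −0.03.

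Most genes had higher footprint RPKM in trm112D. Of the 4281 genes whose RPKM averaged 10 or more over all cycloheximide footprint libraries, 3083 (72%) differed at a Benjamini-Hochberg adjusted p under 0.05 in limma, and such genes are called below. Of these, 2522 (58.9% of the genes tested) were higher in trm112D and 561 (13.1%) were lower, and 3069 of the 3083 had the same sign in both libraries. Both trm112D libraries stood above all 4 wild-type libraries for 2581 genes (60.3%) and below them for 597 (13.9%). The median gene moved by 0.39 log2, 0.44 in library 1 and 0.34 in library 2, so a change near that value is where the middle of the genome lay. With each library centred on its median, 1118 genes (26.1%) were higher and 1303 (30.4%) lower, and centred counts of the gene groups stand in parentheses below. Every count of a gene group against wild type below is to be read beside these shares of all genes, 58.9% and 13.1%, or 26.1% and 30.4% when centred. At least 2-fold changes were fewer, with 381 genes higher and 122 lower. RPKM is a share of the library's reads, so none of these counts gives an amount per cell.

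The shift followed the level of a gene. Genes were put into 5 bins of near-equal size by their footprint RPKM in WT 1 to 6, libraries outside this comparison. From the lowest to the highest bin, the median footprint change in trm112D was 0.62, 0.52, 0.46, 0.30 and 0.06 log2, and the RNA change was 0.25, 0.20, 0.14, 0.05 and −0.11 log2. The share of genes called higher was 70.1% in the lowest bin and 39.2% in the highest, and the share called lower was 4.32% and 31.3%. Among the 100 most translated genes, 26 were higher and 46 lower, with a median of −0.15 log2. The 99 of these with a coding length took 29.3% and 30.5% of the footprints in trm112D, against 38.6% to 40.5% in WT 7 to 10, groups that did not overlap. The matching medians over the 5 bins stayed between −0.01 and 0.02 log2 in trm9D, each strain being set against its own wild type. From the lowest to the highest bin they fell from 0.10 to 0.01 in trm11D and from 0.16 to 0.00 in the Elongator strains. That direction was the one seen in trm112D, over a smaller range.

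**Figure D1:**
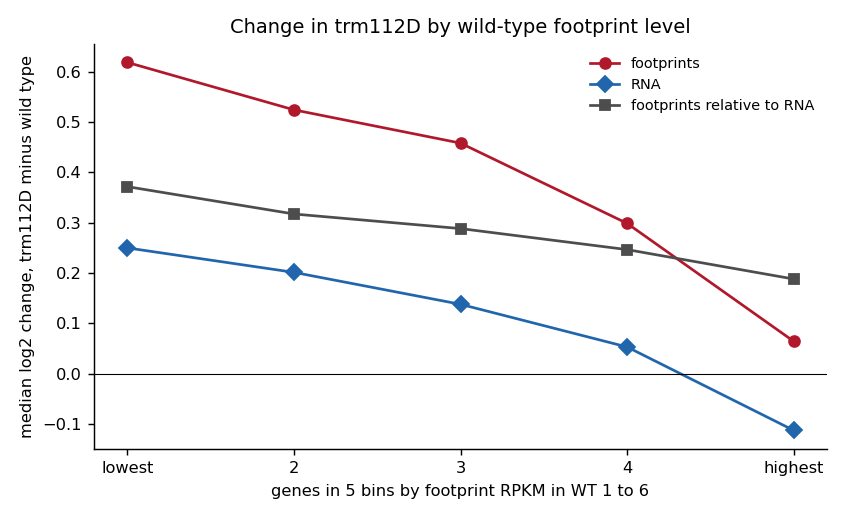
Median log2 change in trm112D against wild type (y axis) for genes in 5 bins by their footprint level in WT 1 to 6 (x axis), for footprints (circles), RNA (diamonds) and footprints relative to RNA (squares). The footprint median is 0.62 in the lowest bin and 0.06 in the highest, and the RNA median is below 0 in the highest bin alone.

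The largest increases were in genes of aromatic amino acid breakdown. ARO10, the decarboxylase of the Ehrlich pathway that turns aromatic amino acids into fusel alcohols, had 101 and 101 RPKM in trm112D, against 7.23, 8.21, 8.93 and 8.51 RPKM in WT 7 to 10. ARO9, the aminotransferase before it, had 134 and 118 RPKM in trm112D, against 21.8, 21.7, 23.5 and 17.4 RPKM in wild type. The 2 groups were far apart for both genes, with log2 changes of 3.47 ± 0.40 and 2.53 ± 0.28 (SE; limma adjusted p = 1.0e-11 and 2.0e-12). Their RNA rose with the footprints: ARO10 had 90.4 RPKM in the trm112D RNA library, against 14.2 to 18.4 RPKM in WT 5 to 8, and ARO9 had 110 RPKM, against 37.7 to 42.5 RPKM. Of 13 genes of aromatic amino acid synthesis, 7 (53.8%, against 58.9% of all genes) were higher and 3 lower (2 and 6 when centred), with a median of 0.21 log2.

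The promoters of both genes are known to bind Aro80, an activator that responds to aromatic amino acids and reads paired CCG triplets. The 300 bases before each coding start, read from the same genome, were searched on both strands for CCGNNNNNNNCCG. ARO10 holds 1 match and ARO9 holds 5, some of which overlap, and 2.72% of 5987 promoters of that length hold at least 1. The stretches that hold them are given with the matches in capitals.
ARO10, chrIV:1233951-1233983, plus strand, 267 to 235 bases before the coding start: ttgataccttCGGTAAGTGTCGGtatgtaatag
ARO9, chrVIII:375468-375586, plus strand, 241 to 123 bases before the coding start: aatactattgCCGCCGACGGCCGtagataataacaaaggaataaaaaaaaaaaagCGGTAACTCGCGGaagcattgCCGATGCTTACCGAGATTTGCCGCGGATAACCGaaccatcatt

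Other genes near the top belonged to stress control, respiration and mating. MSN4, a transcription factor of the general stress response, had 37.1 and 37.1 RPKM in trm112D, against 5.68, 7.42, 6.65 and 4.29 RPKM in WT 7 to 10, and its RNA was 36.5 RPKM, against 6.91 to 9.94 RPKM. COA2, an assembly factor of cytochrome oxidase, had 109 and 161 RPKM in trm112D, against 22.8 to 38.0 RPKM in wild type. GCV1, a subunit of the mitochondrial glycine cleavage complex, had 313 and 270 RPKM, against 62.9 to 80.3 RPKM. No trm112D library of these genes fell inside the wild-type range, and their log2 changes were 2.46, 2.19 and 1.94. BNS1, a relative of the mitotic exit gene SPO12, and SFK1, a membrane protein linked to phosphoinositide kinase, were at 2.15 and 2.13. ADF1, which overlaps FYV5 on the other strand, was at 2.04. YER137C, YBR056W-A and YHR180W-A, without a described role here, were at 1.88, 2.04 and 2.42. YHR180W-A is absent from the R64 annotation used, and its change did not pass the test without library 2 (1.79).

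Most other stress genes did not follow MSN4. Of 10 measured general stress genes, 2 were higher, MSN4 among them, and 3 lower (2 and 6 when centred), with a median of −0.41 log2. The lowest change in this list was −1.57 log2. DDR48, a stress-induced protein rich in asparagine and serine, is not in the list and is shown for the size of its decrease. It had 6.08 and 5.72 RPKM in trm112D, against 115, 119, 102 and 89.5 RPKM in WT 7 to 10. Its log2 change was −3.95 ± 0.17 (SE; limma adjusted p = 7.4e-33), and the RNA was 8.04 RPKM in trm112D, against 67.4 to 85.4 RPKM. YMR173W-A, whose name places it at DDR48 and which is not in the R64 annotation, moved by −4.13. Of 10 trehalose and glycogen genes, 1 was higher and 4 lower (1 and 8 when centred).

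Mating genes of type a cells were mostly higher. MFA1, which encodes the a-factor pheromone, had 4722 and 3830 RPKM in trm112D, against 915, 971, 902 and 1176 RPKM in WT 7 to 10, a log2 change of 2.11 ± 0.22 (SE; adjusted p = 2.1e-13). Its RNA was 787 RPKM in trm112D, against 303 to 363 RPKM in WT 5 to 8. The exporter of the pheromone, STE6, rose by 1.13, the G protein subunit GPA1 by 1.18 and the kinase FUS3 by 1.01. In all, 15 of 19 measured mating genes (78.9%, against 58.9% of all genes) were higher and 1 was lower (9 and 2 when centred), with a median of 0.69 log2. The gene that fell was AGA1, an anchor of the agglutinin, with 19.6 and 13.02 RPKM in trm112D, against 31.1 to 45.7 RPKM in wild type, and it lies 1911 bases before TRM112.

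Genes for building ribosomes rose together. Of 52 measured 60S assembly genes, 52 were called higher (35 when centred, none lower), with a median of 0.77 log2 against 0.39 over all genes. Of 49 genes of the small-subunit processome and 40S assembly, 48 were higher (32 when centred, 1 lower), with a median of 0.65. RRP7, a processome protein, had 178 and 190 RPKM in trm112D, against 69.3 to 76.7 RPKM in WT 7 to 10, and RRP1, of the 60S pathway, had 240 and 259 RPKM, against 111 to 125 RPKM. The groups did not overlap for either gene, and log2 changes were 1.32 ± 0.11 and 1.09 ± 0.10 (SE). UTP6, UTP8 and RCL1, also of the processome, rose by 1.38, 1.09 and 1.15, and the 60S factors PUF6, ARX1 and NOG1 by 1.09, 0.89 and 0.83.

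These lists took a larger share of reads in trm112D. The 60S assembly genes held 1.62% and 1.62% of footprints in trm112D, against 0.88% to 0.95% in WT 7 to 10, and 1.67% of RNA reads, against 1.05% to 1.15% in WT 5 to 8. For the 40S list the shares were 1.496% and 1.510% of footprints in trm112D, against 0.95% to 0.99%. The RNA medians of the 2 lists were 0.46 and 0.42 log2, against 0.14 over all genes, and no member was 2-fold from wild type in RNA. Among 23 measured genes of RNA polymerases I and III, 21 were higher and none lower (11 and 1 when centred). RRN3, the initiation factor of polymerase I, had 69.8 and 57.6 RPKM in trm112D, against 20.7 to 26.2 RPKM in wild type, and the subunit RPA49 rose by 0.81.

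Ribosomal protein genes did not move with the assembly genes. Of 82 large-subunit genes, 36 were higher and 17 lower, with a median of 0.14 log2, and of 57 small-subunit genes, 25 were higher and 14 lower, with a median of 0.12. When centred, 44 and 31 were lower and 9 and 7 higher. Several members were far lower than the rest: RPS9A had 13.3 and 18.02 RPKM in trm112D, against 198 to 238 RPKM in WT 7 to 10, and RPL8A had 133 and 218 RPKM, against 1609 to 1832 RPKM. Their log2 changes were −3.74 ± 0.19 and −3.31 ± 0.08 (SE), with RNA at 100 RPKM, against 203 to 247 RPKM, for RPS9A, and at 167 RPKM, against 1090 to 1140 RPKM, for RPL8A. RPL9B fell by 1.85 log2, RPP1A by 1.39, RPS2 by 0.94 and RPS20 by 0.78. ASC1, the ribosomal scaffold protein whose gene overlaps the small RNA gene SNR24, fell by 1.45. RPS9A, RPL8A, RPL9B and RPL22B each have a near-identical paralog with which reads may be shared, so their values are uncertain.

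RPL22B differed from these in its RNA. It had 23.6 and 19.7 RPKM of footprints in trm112D, against 157 to 186 RPKM in WT 7 to 10, and 263 RPKM of RNA, against 203 to 258 RPKM in WT 5 to 8. Both footprint libraries lay below every wild-type library, while the RNA lay above every one.

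Genes of translation termination, the step that Mtq2 touches, were listed with genes of ribosome rescue and mRNA decay. Of these 19 genes, 16 (84.2%, against 58.9% of all genes) were higher and none lower (10 and 2 when centred), with a median of 0.65 log2. RQC1, of the complex that clears stalled chains, had 56.1 and 65.3 RPKM in trm112D, against 23.4 to 30.7 RPKM in wild type. RLI1, which splits ribosomes after termination, had 249 and 247 RPKM, against 127.1 to 142 RPKM. UPF3, of nonsense-mediated decay, and SKI7, of nonstop mRNA decay, rose by 1.43 and 1.14. Of 7 diphthamide genes, whose products modify elongation factor 2, 5 (71.4%) were higher and none lower (4 and none when centred).

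Of 18 genes of the wobble uridine pathway itself, 12 (66.7%, against 58.9% of all genes) were higher and none lower (8 and 2 when centred), with a median of 0.57 log2. NCS2, of the thiolation branch, had 52.7 and 41.6 RPKM in trm112D, against 14.7 to 18.001 RPKM in WT 7 to 10. KTI12, a regulator of Elongator, rose by 1.13, and the Elongator subunits ELP5 and ELP2 by 0.93 and 0.63. Initiation factors were higher in 8 and lower in 5 of 21 cases (3 and 15 when centred), and elongation factors in 2 and 5 of 11 (none and 10 when centred). Of 20 cytosolic aminoacyl-tRNA synthetases, which charge tRNAs, 5 were higher and 10 lower (none and 17 when centred), and all lay between −0.34 and 0.41 log2. The asparaginyl enzyme DED81 and the alanyl enzyme ALA1 fell by 0.34 and 0.32, and the tyrosyl enzyme TYS1 rose by 0.41, to 0.03 when centred.

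The share of genes called lower was largest, among the lists counted here, in glycolysis. Of 20 measured genes of glycolysis and ethanol formation, 18 were lower and 1 was higher (19 and none when centred), with a median of −0.99 log2. PGK1, phosphoglycerate kinase, had 4026 and 4737 RPKM in trm112D, against 13389, 12476, 13650 and 14016 RPKM in WT 7 to 10. ADH1, the alcohol dehydrogenase that makes ethanol, had 3721 and 3983 RPKM, against 13054 to 13858 RPKM. The groups were far apart, with log2 changes of −1.61 ± 0.07 and −1.80 ± 0.09 (SE; limma adjusted p = 1.6e-32 and 1.0e-29). GPM1 fell by 1.36 and FBA1 by 0.99. The list took 10.32% and 10.97% of footprints in trm112D, against 19.2% to 19.9% in WT 7 to 10, and 6.64% of RNA reads, against 13.12% to 14.03% in WT 5 to 8. In RNA, 13 of 21 members were at least 2-fold below the mean and outside the range of WT 5 to 8, against 97 (1.93%) of 5031 genes, and 43 genes (0.855%) were that far above.

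**Figure D2:**
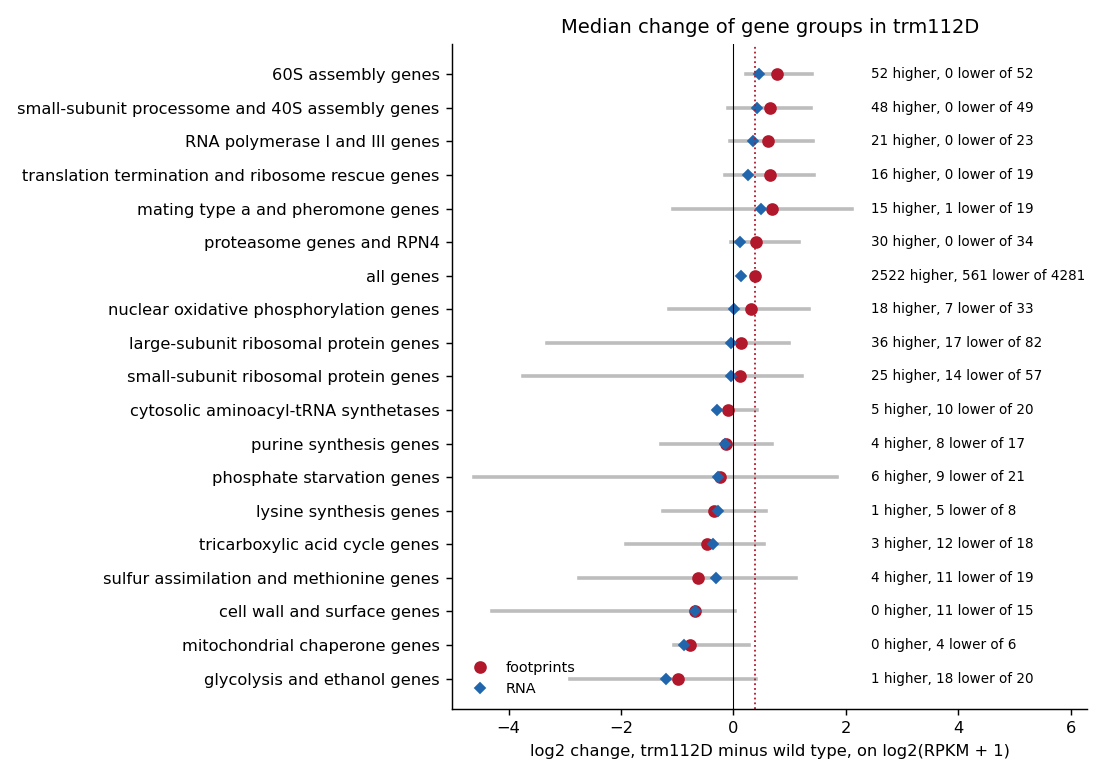
Median log2 change in trm112D against wild type (x axis) for gene groups (rows), for footprints (circles) and RNA (diamonds); grey bars span the lowest to the highest footprint change of the members, the dotted line is the median of all genes, and the text counts members called higher and lower. Ribosome assembly groups lie to the right of the dotted line at 0.77 and 0.65, and glycolysis lies at −0.99.

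Genes tied to the tricarboxylic acid cycle and to mitochondria showed a mixed picture. Of 18 tricarboxylic acid cycle genes, 12 were lower and 3 higher (15 and none when centred), with a median of −0.46 log2. Aconitase, ACO1, had 142 and 153 RPKM in trm112D, against 475 to 626 RPKM in WT 7 to 10, and PYC2, a pyruvate carboxylase, fell by 1.07. Of 6 mitochondrial chaperone genes 4 were lower and none higher, also when centred, with SSC1 and HSP60 at −0.91 and −1.05. Of 33 nuclear genes of oxidative phosphorylation, 18 (54.5%) were higher and 7 lower, but 5 were higher and 9 lower when centred, and their median was 0.32 log2, against 0.39 over all genes. Of the 8 genes encoded in mitochondria, measured in RNA alone, 6 were at least 2-fold higher, with a median of 1.22 log2. AI2 and AI3, read from introns of COX1, had 1923 and 1636 RPKM of RNA in trm112D, against means of 593 and 507 RPKM in WT 5 to 8, and they overlap each other and COX1.

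Chaperones of the cytosol and the proteasome differed in direction. Of 16 heat-shock chaperone genes, 8 were lower and 4 higher (11 and 1 when centred), among them SSA1 with 315 and 308 RPKM in trm112D, against 963 to 1114 RPKM in WT 7 to 10, and HSP82 with 187 and 184 RPKM, against 392 to 438 RPKM. Of 34 proteasome genes, counted with their activator RPN4, 30 were higher and none lower, but 12 were higher and 5 lower when centred, and their median of 0.41 log2 stood beside 0.39 over all genes. RPN9 and RPN4 rose by 1.16 and 0.97.

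Genes of the methyl donor were lower. Trm112's partners use S-adenosylmethionine, and of 7 genes of its making and recycling, 5 were lower and 1 higher (6 and none when centred), with a median of −0.62 log2. MET6, the last enzyme of methionine synthesis, had 151 and 151 RPKM in trm112D, against 552, 524, 506 and 499 RPKM in WT 7 to 10. SAM2, an S-adenosylmethionine synthetase, had 97.8 and 82.2 RPKM, against 272 to 300 RPKM. Both genes were lower with no overlap of the groups, at −1.78 ± 0.12 and −1.68 ± 0.10 (SE; limma adjusted p = 1.0e-21 and 1.4e-24), and their RNA changes were −1.57 and −1.78. SAM1 fell by 0.67 and SAH1, which removes the spent donor, by 0.62. Of 19 measured genes of sulfur assimilation and methionine synthesis, 11 were lower and 4 higher (13 and 1 when centred), among them MET2 with 0.385 and 2.53 RPKM in trm112D, against 13.2 to 14.9 RPKM.

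The largest decrease after TRM112 itself was in a phosphate gene. PHO5, the secreted acid phosphatase induced by phosphate starvation, had 5.60 and 4.39 RPKM in trm112D, against 151, 158, 131 and 145 RPKM in WT 7 to 10. Its RNA was 14.03 RPKM in trm112D, against 145 to 158 RPKM in WT 5 to 8. The log2 changes were −4.62 ± 0.37 in footprints (SE; limma adjusted p = 1.2e-17) and −3.34 in RNA. PHO12, a near-identical acid phosphatase that may share reads with PHO11, fell by 3.39 and the vacuolar phosphatase PHO8 by 1.72, while PHO87, a low-affinity phosphate carrier, rose by 1.84. Of 21 measured phosphate genes, 9 were lower and 6 higher (12 and 3 when centred). ZRT1, the high-affinity zinc transporter of another starvation response, had 3.98 and 4.36 RPKM of footprints in trm112D, against 27.0 to 34.6 RPKM, with RNA at 21.8 RPKM, against 31.2 to 36.5 RPKM.

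PHO5 and other genes of phosphate starvation, though not every gene of the list, are switched on by Pho4, which binds CACGTG and CACGTT. The 300-base promoters of PHO5 and PHO12 hold 1 CACGTG each and no CACGTT, that of PHO8 holds neither, and 3.56% and 9.22% of 5987 promoters hold these motifs on either strand. Bases farther from the coding start were not searched, so sites there would be missed.
PHO5, chrII:431189-431214, minus strand, 263 to 238 bases before the coding start: ttggcactcaCACGTGggactagcac
PHO12, chrVIII:551806-551831, plus strand, 293 to 268 bases before the coding start: ttggcgttcaCACGTGggtttaaaaa

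Amino acid synthesis genes split within pathways. HIS4, which carries 3 steps of histidine synthesis, had 21.5 and 27.2 RPKM in trm112D, against 212, 211, 235 and 225 RPKM in WT 7 to 10, and its RNA was 30.3 RPKM, against 144 to 161 RPKM in WT 5 to 8. Its log2 change of −3.13 ± 0.14 (SE; limma adjusted p = 3.8e-31) stood apart from the other histidine genes, with HIS1 at −0.37, HIS2 at 0.45, HIS5 at 0.56, HIS6 at 0.42 and HIS7 at −0.05 (adjusted p = 0.62). None of HIS2, HIS5 and HIS6 was called when centred. ARG1, argininosuccinate synthetase, had 4.005 and 8.79 RPKM in trm112D, against 35.2 to 38.9 RPKM in wild type, while 1 of 8 arginine genes was higher and 2 were lower in all (1 and 5 when centred). Of 8 lysine genes, 5 were lower and 1 higher (7 and none when centred), with LYS20, LYS9 and LYS4 at −1.26, −0.83 and −0.67. Of 11 branched-chain genes 6 (54.5%, against 58.9% of all genes) were higher and 2 lower, but 4 were higher and 5 lower when centred. Of 17 purine genes 4 were higher and 8 lower (1 and 12 when centred), with ADE17 and ADE12 at −1.29 and −0.91.

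HIS4 and ARG1 are known targets of Gcn4, the activator of amino acid synthesis, which reads TGACTC. They are shown as the lowest genes of their lists, and other members did not follow them. Of 6 histidine genes 3 were called higher and 2 lower (none and 3 when centred). Of 8 arginine genes 1 was higher and 2 lower. A role of Gcn4 was not tested. GCN4 was not chosen by the rule for named genes and was added after its values were seen. It had 17.3 and 23.3 RPKM of footprints in trm112D, against 31.99, 31.3, 31.6 and 23.4 RPKM in WT 7 to 10, a log2 change of −0.52 ± 0.27 that did not pass the test (limma adjusted p = 0.071). It passed when centred, at −0.91 (adjusted p = 0.003), and without WT 10, at −0.63. Of 12 genes of GCN4 and its translational regulators, 10 (83.3%, against 58.9% of all genes) were higher and none lower (3 and 2 when centred). The motif occurs in the 300-base promoter of HIS4 3 times and in that of ARG1 once, on either strand, and in 7.77% of 5987 promoters.
HIS4, chrIII:68517-68598, minus strand, 265 to 184 bases before the coding start: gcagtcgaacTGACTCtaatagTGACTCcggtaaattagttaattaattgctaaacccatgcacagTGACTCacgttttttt
ARG1, chrXV:218927-218952, plus strand, 284 to 259 bases before the coding start: ccgtatggaaGAGTCAtttaaaggca

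Cell wall genes fell without exception in direction among those called, 11 of 15 lower and none higher (15 and none when centred). TIR1, a cell wall mannoprotein of cold and anaerobic growth, had 15.4 and 11.3 RPKM in trm112D, against 244, 289, 307 and 281 RPKM in WT 7 to 10. CWP1, another mannoprotein, had 20.3 and 20.6 RPKM in trm112D, against 252 to 277 RPKM. Both were more than 10-fold lower in each library, with log2 changes of −4.30 ± 0.23 and −3.61 ± 0.26 (SE; limma adjusted p = 5.6e-27 and 5.2e-20), and in RNA they changed by −3.50 and −3.34. TIR3, a relative of TIR1, fell by 2.34. Of 10 measured hypoxic genes and aerobic partners, 8 were lower and 1 higher (9 and 1 when centred): OLE1, the fatty acid desaturase, fell by 0.67, HYP2 and ANB1, the aerobic and hypoxic forms of factor eIF5A, by 0.73 and 1.06, and CYC1, cytochrome c, by 1.14. CYC1 had 81.9 and 30.0 RPKM in trm112D, against 99.0 to 126 RPKM, and without library 2 its change was −0.43 and was not called. YLR346C and HMS2 were also among the lowest genes, at 3.68 and 0 RPKM and at 3.13 and 0 RPKM in trm112D, against 13.4 to 22.1 and 13.8 to 17.9 RPKM in wild type.

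**Figure D3:**
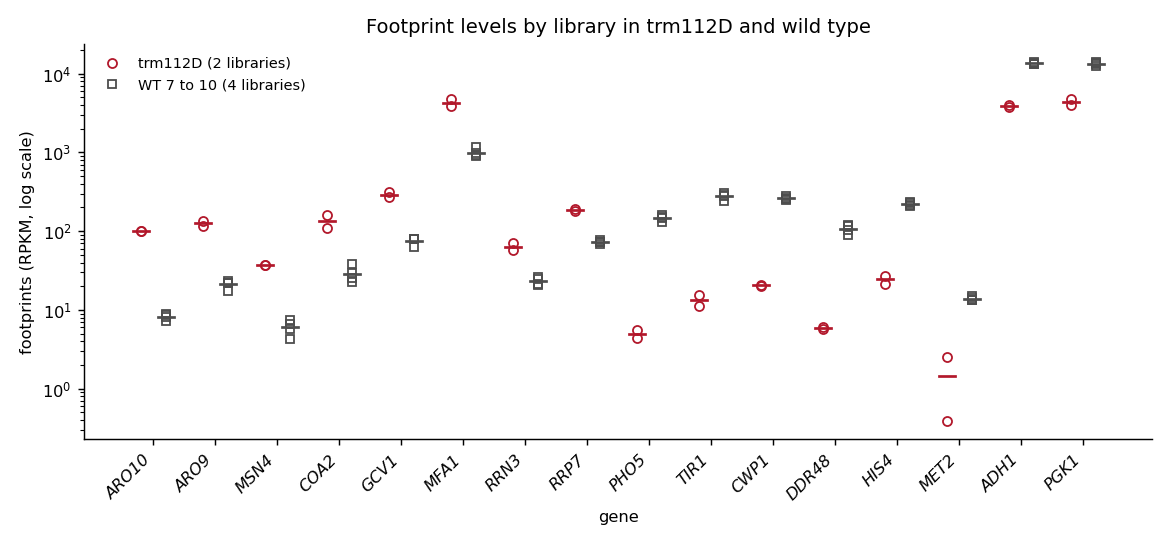
Footprint level (RPKM, log scale, y axis) of 16 genes (x axis) in each library, with trm112D as circles and WT 7 to 10 as squares; short lines are group means. ARO10 lies at 101 and 101 RPKM in trm112D, above all wild-type libraries, and PHO5 lies at 5.60 and 4.39 RPKM, below all of them.

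Several small groups are given by their counts alone, beside 58.9% higher and 13.1% lower over all genes. Of 14 iron uptake genes, 5 were higher and 2 lower (3 and 3 when centred), and of 7 zinc genes 2 were higher and 4 lower (none and 4). Of 4 hexose transporters 1 was higher and 2 were lower (none and 3), and of 10 histone genes 3 were higher and 1 lower (1 and 5). Of 11 cyclins 5 were higher and none lower (1 and 2), and of 7 ribonucleotide reductase genes and regulators 4 were higher and 1 lower (1 and 3). Both measured vitamin B6 genes and the 1 measured gene among the markers deleted in BY4741 were not called.

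Footprints relative to RNA compare the footprint change with the RNA change of the same gene, and with 1 RNA library they carry no test. Over 4253 genes the median of this difference was 0.28 log2. Of 494 called genes with a change of at least 2-fold and an RNA value, 481 had an RNA change of the same sign. Only 27 genes (0.635%) had a relative change of at least 2-fold upward with each footprint library, and 17 (0.4%) downward. Using trm112D library 1 alone gave 96 and 36 genes, and library 2 alone gave 87 and 59, because requiring both removes genes.

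Among the lowest of these, ODC2, a mitochondrial carrier of oxodicarboxylates, had 4.26 and 5.34 RPKM of footprints in trm112D, against 23.6 to 29.3 RPKM in WT 7 to 10, and 85.2 RPKM of RNA, against 41.2 to 48.9 RPKM in WT 5 to 8. Its footprints were lower and its RNA higher than in every wild-type library, a relative change of −3.19. RPL22B followed at −3.08, RPS9A at −2.60, HMS2 at −2.08 and PCL5, a cyclin that promotes the breakdown of Gcn4, at −2.03. PCL5 had 2.44 and 5.36 RPKM of footprints in trm112D, against 19.3 to 23.2 RPKM, with RNA at 94.1 RPKM, against 97.7 to 118 RPKM. Among the highest, PPQ1, a phosphatase, had 67.4 and 66.5 RPKM of footprints in trm112D, against 17.2 to 23.4 RPKM, and 67.6 RPKM of RNA, against 55.8 to 61.6 RPKM, a relative change of 1.499. YBR056W-A, YHR180W-A, RTS3 and DFG10 were at 1.75, 1.74, 1.65 and 1.34.

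The deposited codon table gives, for each library, the log2 frequency of each of 61 sense codons in the A site, where a tRNA enters the ribosome, the P site, which holds the growing chain, and the E site, the exit. The values are relative to wild type by a rule that is not given in the sources used here, and it is not known whether they allow for the codons of the genes translated, so genes that change level may move them. Differences below are trm112D 1 and 2 minus WT 7 to 9, since WT 10 has no column, and adjusted p-values are from limma over 183 codon and site pairs.

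At the A site 44 of 61 codons (72.1%) were called, 16 higher (26.2%) and 28 lower (45.9%). Codons of 1 amino acid often moved together. Both histidine codons were the lowest group: CAC had −0.518 and −0.756 in trm112D, against −0.0117, 0.0754 and −0.0673 in WT 7 to 9, and CAU had −0.402 and −0.683, against 0.0391, 0.112 and −0.165. The groups did not overlap, and the differences were −0.64 ± 0.08 and −0.54 ± 0.10 (SE; adjusted p = 7.3e-10 and 2.0e-06). Every codon of tryptophan, aspartate, phenylalanine, glycine, asparagine and glutamate was lower as well. The leucine codon CUU and the arginine codon CGA were at −0.54 and −0.51, and UGG, for tryptophan, was at −0.42.

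Every codon of isoleucine, valine, methionine, tyrosine and lysine was higher at the A site. The lysine codon AAA had 0.328 and 0.333 in trm112D, against 0.015, −0.0643 and 0.047 in WT 7 to 9, a difference of 0.33 ± 0.05 (SE; adjusted p = 5.0e-08). AUA and AUC, for isoleucine, were at 0.37 and 0.30, GUA, for valine, at 0.36 and AUG, for methionine, at 0.32. Both trm112D libraries lay above all 3 wild-type libraries for these 5 codons.

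tRNAs with the wobble uridine that Trm9 completes read the lysine codon AAA, the glutamate codon GAA, the glutamine codon CAA, the arginine codons AGA and AGG and the glycine codons GGA and GGG. AGG and GGG also have tRNA genes of their own, with anticodons CCU (1 gene) and CCC (2 genes). At the A site these 7 codons did not move together in trm112D. AAA and AGG were higher, at 0.33 and 0.14, AGA was not called, at 0.05 (adjusted p = 0.12), and GGA, GGG, GAA and CAA were lower, at −0.27, −0.23, −0.16 and −0.15. CAA had −0.109 and −0.200 in trm112D, against 0.0079, 0.0687 and −0.0805 in WT 7 to 9. The related strains did not move all 7 one way either. In trm9D, against its own wild type, CAA and GAA were higher, at 0.29 and 0.10, AGA was lower, at −0.09, and AAA, AGG, GGA and GGG were not called, at 0.12, 0.07, 0.02 and 0.05. In the Elongator strains CAA, AAA and GAA were higher, at 0.31, 0.21 and 0.10, AGA and GGA were lower, at −0.16 and −0.15, and AGG and GGG were not called, at 0.03 each. Codons outside these 7 were called too. In trm9D, CAG, CCG, CGC and CUG were higher, at 0.21, 0.19, 0.17 and 0.16, and UAU, UAC and UCA lower, at −0.09, −0.08 and −0.08. CAG, CCG, CGC and CUG were also higher in the Elongator strains, at 0.17, 0.14, 0.15 and 0.14, where further codons were called in both directions. The difference of trm112D from trm9D was −0.44 ± 0.07 for CAA and −0.25 ± 0.04 for GAA (SE; adjusted p = 5.9e-07 and 2.0e-08), and from the Elongator strains −0.46 and −0.26. For AAA trm112D was above trm9D by 0.21 ± 0.07 (adjusted p = 0.0075). AGG did not differ from trm9D past the threshold, by 0.08 ± 0.06 (adjusted p = 0.28). CAA was not called against wild type without trm112D library 2, at −0.11, or without WT 8, at −0.12, nor AGG without trm112D library 2, at 0.11.

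At the P site 33 codons (54.1%) were called, 19 higher (31.1%) and 14 lower (23%), with the amino acids apart from each other. Both lysine codons, both phenylalanine codons and 5 of 6 arginine codons were lower, while the histidine codon CAU was higher, at 0.14, and CAC was not called, at 0.10. AAG had −0.298 and −0.283 in trm112D, against −0.037, 0.0171 and 0.0192 in WT 7 to 9, and AAA had −0.212 and −0.217, against −0.038, −0.0086 and 0.0453. CGG had −0.618 and −0.644, against −0.0868, 0.0469 and 0.0362. The trm112D libraries lay close together and below wild type for all 3 codons, at −0.29 ± 0.03, −0.21 ± 0.03 and −0.63 ± 0.06 (SE; adjusted p = 8.7e-12, 1.8e-07 and 3.8e-13). AGG, AGA and CGA were at −0.44, −0.38 and −0.28, the last not called without trm112D library 2 (−0.17) or without WT 7 (−0.22). UUA, for leucine, the alanine codons GCC and GCU, ACA, for threonine, and UGG were the highest, at 0.29, 0.29, 0.27, 0.27 and 0.24.

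The lysine codons were also lower at the P site in trm11D. Against the same wild-type libraries, which trm112D and trm11D share, trm11D was at −0.26 for AAG and −0.21 for AAA, with values of −0.236 and −0.280 and of −0.183 and −0.240 in its libraries. The direct difference of trm112D from trm11D was −0.03 ± 0.04 for AAG and −0.00 ± 0.04 for AAA (SE; adjusted p = 0.44 and 0.94), which does not show that the strains act alike. For the arginine codons AGA, AGG and CGG, trm11D was at −0.20, −0.18 and −0.16 against wild type, of which only AGA was called. trm112D lay below trm11D, with differences of −0.18, −0.26 and −0.47 that passed the test (adjusted p = 9.4e-06, 0.0053 and 4.9e-08). Other codons called lower in trm11D at the P site were not called in trm112D. UAC was at −0.19 in trm11D and −0.04 in trm112D, AAC at −0.11 and 0.01, and ACG at −0.11 and −0.03. Each direct difference passed the test (adjusted p = 0.00032, 0.006 and 0.032). UAU, AAU and CGC, at −0.10, −0.12 and −0.14 in trm11D, did not differ past the threshold. UUA, GCU and UCU were higher in both strains, while AGU was at 0.13 in trm11D and −0.12 in trm112D. UUG, GGU, CUG and GAG were also called higher in trm11D, at 0.12, 0.09, 0.14 and 0.07. They were not called in trm112D, at 0.04, −0.05, 0.03 and 0.01. In trm9D, AAG and AAA were at −0.01 and −0.06 at the P site and were not called.

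At the E site 26 codons (42.6%) were called, 12 higher (19.7%) and 14 lower (23%), over a narrower range. Arginine reversed its direction from the P site: 5 of 6 codons were higher, with CGA, CGG, CGC and AGA at 0.25, 0.21, 0.15 and 0.15, and the histidine codon CAU was at 0.15. All 3 isoleucine codons, higher at the A site, were lower here, with AUC at −0.22 and AUU at −0.20. GUG and GUC, for valine, were at −0.19 and −0.13 and AGC, for serine, at −0.11. CGG was not called without trm112D library 1, at 0.17.

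**Figure D4:**
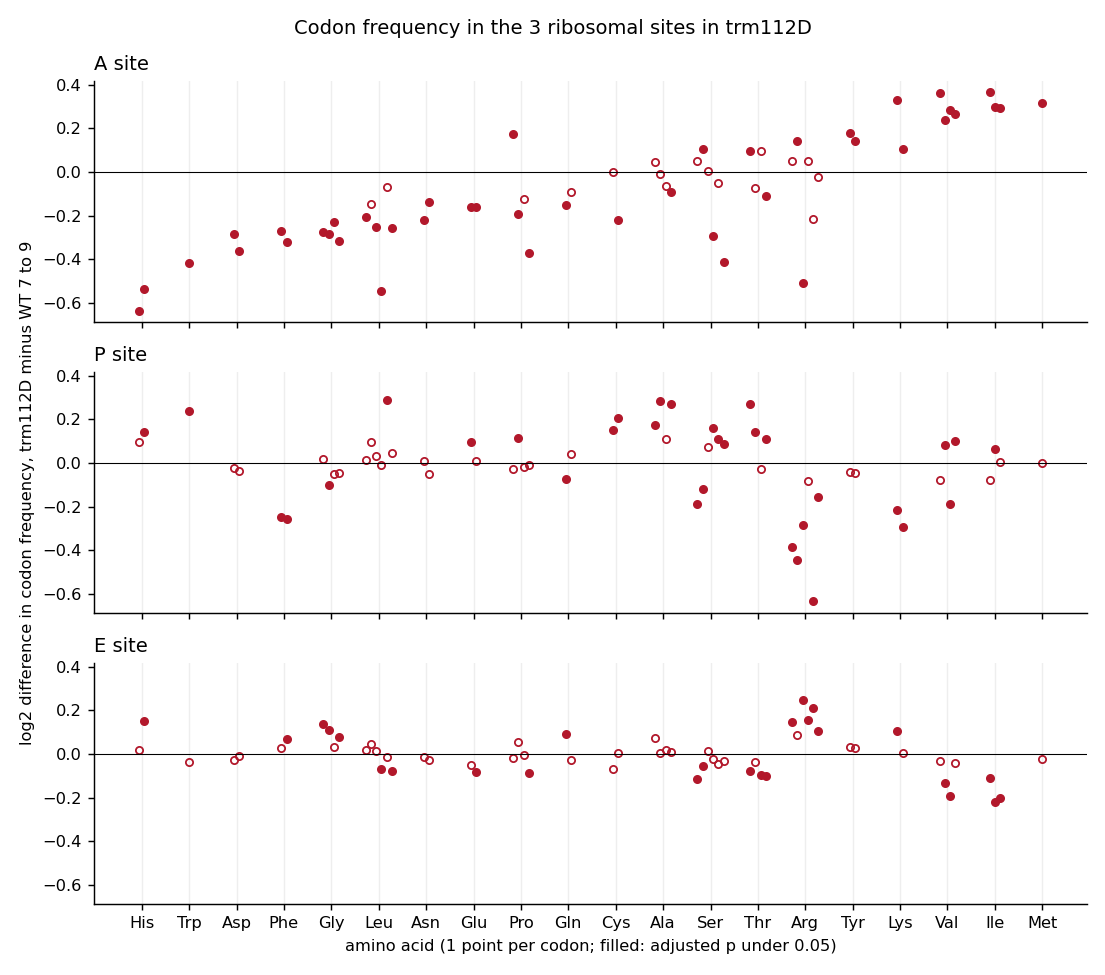
Log2 difference in codon frequency between trm112D and WT 7 to 9 (y axis) at the A, P and E sites (panels), by amino acid (x axis), 1 point a codon, filled where the adjusted p is under 0.05. Histidine codons lie at −0.64 and −0.54 and isoleucine codons at 0.29 to 0.37 at the A site, and arginine codons reach −0.63 at the P site.

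The wider response was set against strains that lose 1 partner or an earlier step. The difference of log2 changes passed the test for 2075 genes higher (48.5%) and 523 lower (12.2%) against trm9D, for 2173 (50.8%) and 518 (12.1%) against trm11D, and for 2218 (51.8%) and 712 (16.6%) against the mean of the Elongator strains. trm9D has its own wild type, WT 11 to 14, while trm112D, trm11D and the Elongator strains share WT 7 to 10, so their changes are not independent. Each strain's own target was low in it: TRM9 was at −5.18 in trm9D and TRM11 at −5.16 in trm11D.

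The aromatic breakdown genes of trm112D were far from trm9D and trm11D, and their difference from the Elongator strains was smaller. ARO10 changed by 3.47 in trm112D, 1.11 in trm9D, 0.58 in trm11D and 3.584 in the Elongator strains, and ARO9 by 2.53, 0.70, 0.41 and 3.03. The difference of trm112D from trm9D was 2.36 ± 0.56 for ARO10 (SE; limma adjusted p = 0.00027), and that from the Elongator strains was −0.12 ± 0.37 (adjusted p = 0.79). PHO5 was at −4.62 in trm112D, −1.44 in trm9D, −0.16 in trm11D and −2.54 in the Elongator strains, and trm112D was below each (adjusted p = 6.3e-07, 5.1e-14 and 4.7e-07). TIR1 followed the same order, at −4.30, −1.36, −0.38 and −2.65. Its value in trm11D did not pass the test, nor did that of PHO5 (adjusted p = 0.70 and 0.96).

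Other genes moved in opposite directions. CWP1 fell by 3.61 log2 in trm112D and rose by 1.4996 in trm9D and by 1.11 in the Elongator strains, so that the differences were −5.11 ± 0.37 and −4.72 ± 0.25 (SE; limma adjusted p = 1.1e-19 and 7.4e-28). HIS4 was at −3.13 in trm112D, −0.19 in trm9D, −0.05 in trm11D and 0.45 in the Elongator strains. ARG1 and LYS20 were at −2.47 and −1.26 in trm112D and at 0.94 and 1.19 in the Elongator strains, where GCN4 itself was at 2.29, against −0.52 in trm112D. ODC2 was at −2.26 in trm112D and 1.21 in the Elongator strains.

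A further set differed from all of these strains. MFA1 was at 2.11 in trm112D, −0.28 in trm9D, 0.42 in trm11D and −0.36 in the Elongator strains, and each difference passed the test (adjusted p = 1.2e-09, 3.7e-08 and 2.0e-17). DDR48 was at −3.95 in trm112D, −0.11 in trm9D, −0.27 in trm11D and −0.63 in the Elongator strains. RRN3 was at 1.42 in trm112D, −0.25 in trm9D, −0.04 in trm11D and −0.03 in the Elongator strains, and PGK1 was at −1.61, 0.13, −0.14 and −0.59. Of the 52 60S assembly genes, 51 were above trm9D, 51 above trm11D and 50 above the Elongator strains in these tests, against 48.5%, 50.8% and 51.8% of all genes. The list's own medians in those strains were −0.16, 0.05 and 0.08 log2. Of 20 glycolysis genes, 17, 18 and 16 were below the same 3, against 12.2%, 12.1% and 16.6% of all genes. The medians of the glycolysis list in those strains were 0.16, −0.06 and −0.22. The counts of both lists are without centring. YGL088W, which overlaps the small RNA gene SNR10, was at 0.78 in trm112D and −3.75 in trm9D, a difference of 4.54.

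**Figure D5:**
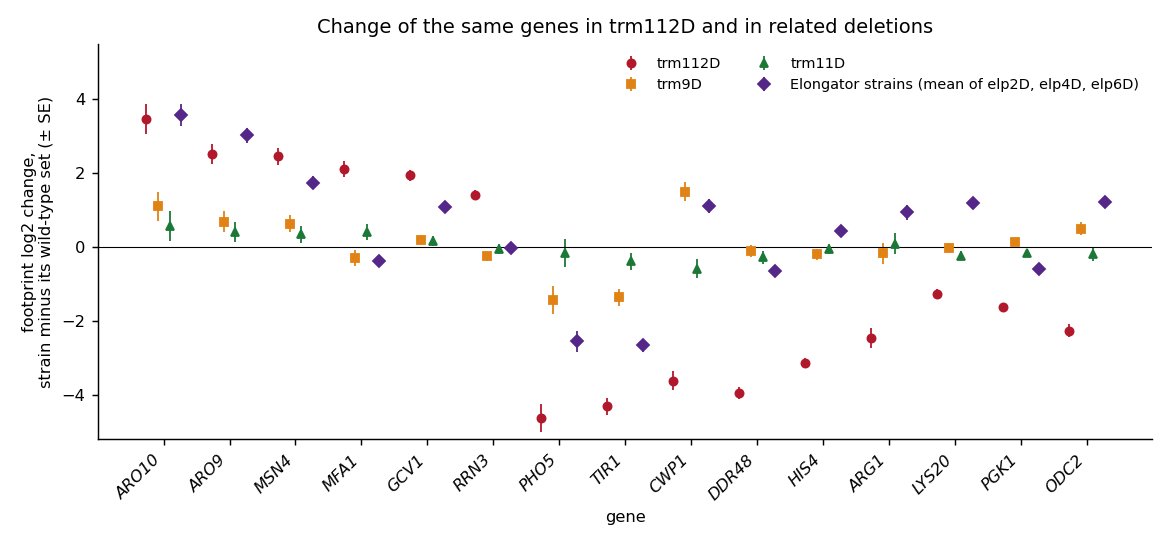
Footprint log2 change against the wild type of each set (y axis, ± SE) for 15 genes (x axis) in trm112D (circles), trm9D (squares), trm11D (triangles) and the Elongator strains (diamonds, mean of elp2D, elp4D and elp6D). ARO10 and ARO9 lie near each other in trm112D and the Elongator strains, CWP1 lies at −3.61 in trm112D and 1.4996 in trm9D, and trm11D stays between −0.58 and 0.58 for the genes shown.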

How the data were processed

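Ribosome footprints and RNA were measured in trm112D and wild type. Both were deposited by the authors as RPKM for 6692 genes. Per the submitters' processing notes, the tools were TopHat2 2.0.12, SAMtools and HOMER 4.6 on sacCer3; how reads were counted on overlapping or near-identical genes is not given in the sources used here. A table of translational efficiency as a ratio was deposited too and served only to tie strains to wild-type libraries. A deposited codon table holds log2 values; what they are relative to and how reads were assigned to codons is not given in the sources used here. In all, 121 columns that name no sample used here (113 of ratios, 8 of codons) were left out of every test.

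Depths came from the steps of the RPKM and the coding lengths of 6007 genes of R64: among values of 20 reads or fewer, 96.16% to 98.03% came out whole within 0.1 read. No molecular identifiers were used, so depth covers counting error only. Since RPKM are not counts, the test was limma 3.58.1 (R 4.3.3, trend) on log2(RPKM + 1), which understates changes of low genes. One fit held all 127 cycloheximide footprint libraries (67 residual degrees of freedom), with genes of a mean of at least 10 RPKM, and p-values were Benjamini-Hochberg adjusted over 4281 genes and called under 0.05. The codon fit held 124 libraries and 183 tests. RNA has 1 trm112D library: with no test, a gene was counted where it lay outside the range of WT 5 to 8 and differed from their mean by 2-fold or more. Footprints relative to RNA are the difference of both log2 changes, counted where at least 2-fold with each footprint library. The code was tested on simulated data.

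The members, lists, tests and alternatives were chosen with earlier results of these data known. Named genes are the 12 highest and 12 lowest footprint changes with both trm112D libraries outside the wild-type range, all members of the Trm112 partner, aromatic breakdown and histidine lists, up to 4 members of smallest adjusted p of every other list, the 5 largest differences each way from each strain and the 5 largest RNA and relative values; codons are the 5 highest and 5 lowest of each site and the 7 read by the wobble uridine tRNAs. FPK1, AGA1 and GCN4 were added after their values were seen. Alternatives were other pseudocounts, no filter, centring, quantile normalization, all wild-type libraries, array weights, only the groups compared, each library left out and a replicate block. The replicate block on codons and a crossed block for trm11D were chosen after seeing the data. Replicate numbers 1 and 2 do not pair trm112D with other strains: the difference between libraries 1 and 2 correlated across genes at −0.12 to 0.08.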

Additional observations from a re-analysis of the deposited data

Results flagged for a closer look

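In 101 groups of 4 wild-type footprint values and 101 of RNA values, 5 and 4 held a library apart from the other 3, where chance gives about 1 in 20. In footprints these were GCV1 in WT 10 at 62.86 RPKM, UPF3 in WT 8 at 24.36 RPKM, RPS20 in WT 7 at 5374 RPKM, GCN4 in WT 10 at 23.4 RPKM and AGA1 in WT 8 at 45.74 RPKM. In RNA they were ARO10 at 18.36 RPKM, MSN4 at 9.937 RPKM and ELP2 at 67.91 RPKM, all in WT 6, and ARX1 in WT 8 at 106 RPKM. The trm112D values of all 9 lay outside the wild-type range with these libraries included.

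Changes in trm112D that differ in sign from those of a related strain passed a test of the difference. For CAA at the A site trm112D was at −0.15, trm9D at 0.29 and the Elongator strains at 0.31, and the differences were −0.4383 and −0.4597. For GAA they were −0.2533 and −0.2619. Footprints of CWP1 differed by −5.114 from trm9D and by −4.724 from the Elongator strains, those of HIS4 by −3.58 and those of ODC2 by −3.473 from the Elongator strains.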

How the results depend on the processing

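Of 2445 recomputations of 191 named values, 2385 kept their direction and their side of the threshold. Centring gave 1118 genes higher and 1303 lower in trm112D against wild type, 929 and 1010 against trm9D, 890 and 1095 against trm11D, and 1163 and 1247 against the Elongator strains, and quantile normalization gave 1258 and 1075, 1017 and 874, 1052 and 915, and 1292 and 1075. In RNA, no filter on low values gave 111 genes higher. Relative to RNA, a pseudocount of 5 gave 14 higher, no filter 82 higher and 109 lower, centring 5 and 33, and all wild-type libraries 16 higher. With 1 library left out, these counts ran from 19 to 96 higher and 16 to 59 lower, both maxima without a trm112D library, and the E-site codon calls ran from 12 to 20 against trm9D (12 without trm112D 1) and 11 to 22 against trm11D (11 without trm11D 2).

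BUD23 turned to −0.033 with centring, HIS7 to 0.0044 with all 14 wild-type libraries, GGA at the P site to −0.0075 without trm112D 1 and −0.00015 without WT 7 (up to 0.0417, without trm112D 2), and AAA at the P site against trm11D to 0.0255 without trm11D 1 (down to −0.032, without trm11D 2); the cause was not tested. Library 2 of trm112D, with 0.8084 M reads, was the shallowest of those compared.

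No paired analysis against wild type was run, because the labels do not tie the numbers 7 to 10 of wild type to those of trm112D. A grouping by the order of the samples in the series was not tried. With a replicate block over the strains' numbers, 2086 genes were higher and 528 lower against trm9D, 2185 and 521 against trm11D, and 2230 and 718 against the Elongator strains, and the codon calls at the A, P and E sites were 45, 34 and 28 against wild type. For trm11D the numbers correlated at −0.12, and with them crossed the block gave 2183 and 520. With the block no call among the named footprint values changed, and GAA and AGG at the E site came to be called against wild type, at −0.05 and 0.09.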
